A study of Mus musculus with 6 samples.

Results

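The immunity-related GTPases (IRG) are a family of GTPases that mouse cells make when they meet interferon gamma. Igtp, Irgm1, Irgm2, Iigp1, Tgtp1, Tgtp2 and Ifi47 were followed here by gene symbol, and all 7 were found among the 55298 gene identifiers of the deposited table. Each of the 7 passed the filter on low values, which left 18161 genes for testing. The RNA came from cells pulled out of mouse brain by magnetic beads carrying an O4 antibody, which binds oligodendrocytes and their late precursors, and the cells were not cultured. All mice had the strain label c56Bl/6j. The EAE group was immunised with the MOG 35-55 peptide, a fragment of myelin oligodendrocyte glycoprotein that induces experimental autoimmune encephalomyelitis (EAE), a paralytic disease in which immune cells enter the central nervous system. The OVA group received ovalbumin instead. Tissue was taken at the peak of disease. The 3 EAE samples were pools of 2 mice each, and the 3 OVA samples held 1 mouse, 2 mice and 1 mouse (replicates 1, 2 and 3). Age, sex and batch are not given in the labels, and 4 of the 6 samples mix RNA of 2 animals, so that p-values measure the spread between these samples and not between single mice.

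IRG proteins fall into a regulatory and an effector type. The effectors, Iigp1 (Irga6), Tgtp1 and Tgtp2 (Irgb6) and Ifi47 (Irgd), gather on the membrane of vacuoles that hold parasites or bacteria and help to break it. The regulators, Igtp (Irgm3), Irgm1 and Irgm2, sit on the cell's own membranes and keep the effectors there in the inactive, GDP-bound state. In the usual route to their transcription interferon gamma binds its receptor, the Janus kinases Jak1 and Jak2 on its chains become active, and the signal reaches promoter elements called GAS. A second element, called ISRE, is bound by factors such as Irf1 and Irf9.

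The promoters of the members are shown because several share these elements in nearly the same arrangement. RefSeq promoter sequences on GRCm38.p6, 300 bases each with 250 before the start site, were at hand for 6 of the 7 members, all but Iigp1. They were searched on both strands for GAS as TTCNNNGAA, which reads the same on either strand, and for ISRE as GAAA, any 2 bases, and GAAA again. Each line below runs 5′ to 3′ on the gene's strand, and capitals mark the matches.
Igtp, chr11:58199492-58199546, plus strand: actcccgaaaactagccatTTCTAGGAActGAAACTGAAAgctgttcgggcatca
Irgm2, chr11:58214883-58214937, plus strand: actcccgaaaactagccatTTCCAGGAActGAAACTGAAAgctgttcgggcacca
Tgtp1, chr11:48992299-48992353, minus strand: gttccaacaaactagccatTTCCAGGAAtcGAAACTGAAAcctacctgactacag
Tgtp2, chr11:49064258-49064312, minus strand: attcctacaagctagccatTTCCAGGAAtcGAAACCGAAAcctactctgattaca
Irgm1, chr11:48871420-48871474, minus strand: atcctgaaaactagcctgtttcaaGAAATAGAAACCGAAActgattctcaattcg
The first 4 hold a GAS match followed by an ISRE match, the latter beginning 34 bases before the start site in Igtp, 64 in Irgm2, 77 in Tgtp1 and 70 in Tgtp2. In Irgm1 a pair of overlapping ISRE matches begins 30 and 24 bases before the start site, and the GAS letters were not found. Neither set of letters was found in the window of Ifi47. Among all 32851 promoters of this length 8.3% held a GAS match, 3.44% an ISRE match and 0.454% both. A match describes letters only, and no binding was measured.

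Values are regularised logarithms (rlog) of scaled read counts, on a log2 scale, so that a difference of 1 is a 2-fold difference. The rlog draws weakly expressed genes towards their own mean and so understates their differences. The depth of the samples is unknown. Markers of the labelled cell type were the most abundant of those examined, with a summed level, on the log2 scale, of 19.75 to 20.25 in the 6 samples. Transcripts of other cells were present too, and none of the marker genes examined was at 0 in all samples. OVA replicate 3, a single mouse, stood apart. Set against the mean of OVA replicates 1 and 2, the median difference of its 5 neutrophil markers was 3.21, that of its 4 monocyte markers 2.15, that of its 4 B cell markers 1.40 and that of its 9 oligodendrocyte markers -0.44. In bulk RNA fewer cells of a type and less RNA per cell cannot be told apart. EAE was compared with OVA by limma over all tested genes, with a threshold of 0.05 on the Benjamini-Hochberg adjusted p. Errors of differences are standard errors (SE), those of group values standard deviations (SD, n = 3).

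Of the 7 IRG genes 4 rose in EAE and none fell. Igtp, Irgm1, Irgm2 and Iigp1 rose 4.70-fold, 4.17-fold, 2.53-fold and 3.70-fold, while Tgtp1, Tgtp2 and Ifi47 lay above 0 without passing the test. The 4 of 7 compare with 1.72% of all tested genes called higher in EAE. Genes called lower made up 0.666%, and those called in either direction 2.38%. A difference of at least 1 upwards was seen in 6 of the 7 members and in 1.12% of all tested genes. The median difference of the 7 was 1.34, against -0.002 over all tested genes. In 6 of the 7 every EAE sample lay above every OVA sample, which held for 12.1% of all tested genes (22.8% had groups apart in either direction). With 3 samples against 3 an exact permutation test cannot go below a two-sided p of 0.1, so the adjusted p-values draw on the spread shared over genes in limma.

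**Figure D1:**
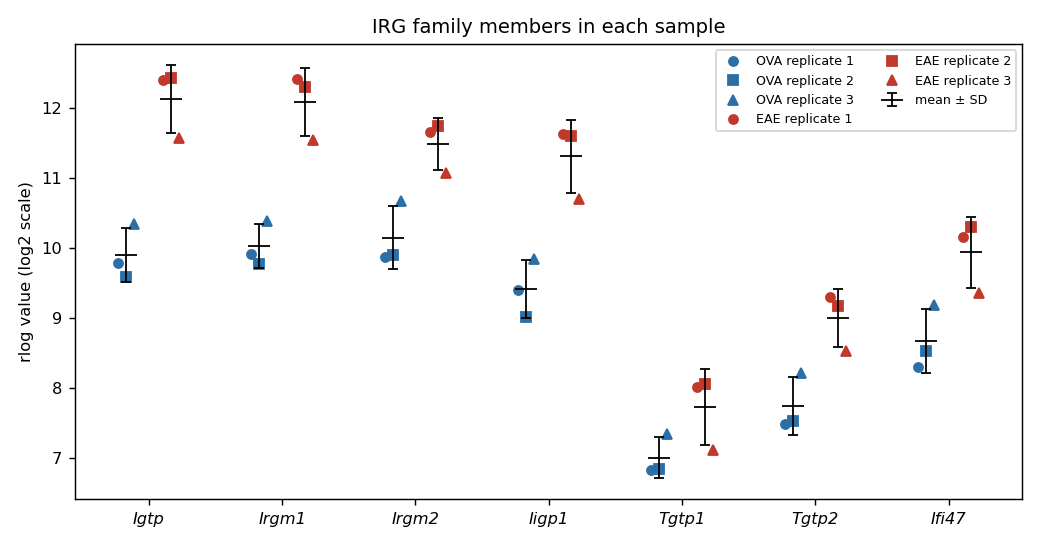
The rlog values (log2 scale, vertical axis) of the 7 IRG members (horizontal axis) are plotted for each OVA sample (blue) and EAE sample (red), with the mean and SD of 3 samples in black. EAE replicate 3 is the lowest EAE sample and OVA replicate 3 the highest OVA sample for each of the 7 genes, and the groups overlap for Tgtp1 alone.

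All 3 regulators rose. Igtp (ENSMUSG00000078853.8, chromosome 11, 58199556 to 58207591, plus strand), whose protein lies on the endoplasmic reticulum and lipid droplets, stood at 9.79, 9.59 and 10.34 in OVA replicates 1 to 3 and at 12.40, 12.44 and 11.58 in EAE replicates 1 to 3. The groups were farther apart at their nearest samples than for any other of the 7 members. Igtp differed by 2.23 ± 0.27 (SE), from 9.91 ± 0.39 to 12.14 ± 0.49 (limma adjusted p = 0.0116). It ranked 23rd of all tested genes by the size of its increase.

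Irgm1 (ENSMUSG00000046879.7, chromosome 11, 48861968 to 48871683, minus strand), a regulator found on the Golgi apparatus, mitochondria and lysosomes and tied to autophagy, followed the same course. Its values were 9.93, 9.78 and 10.38 in OVA and 12.43, 12.30 and 11.54 in EAE. The groups were 1.16 apart at their nearest samples. A gap of at least 1 between the nearest samples, seen for Igtp and Irgm1, was found for 0.308% of all tested genes. The difference of Irgm1 was 2.06 ± 0.25 (limma adjusted p = 0.0116).

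Irgm2 (ENSMUSG00000069874.7, chromosome 11, 58199618 to 58222782, plus strand), also a regulator of the Golgi region, had the smallest difference of the 3 regulators. It stood at 9.88, 9.90 and 10.68 in OVA and 11.66, 11.75 and 11.07 in EAE, so that OVA replicate 3 came within 0.39 of EAE replicate 3. Its difference was 1.34 ± 0.25, with a limma adjusted p of 0.0425 that lay close to the threshold. Without the filter on low values the adjusted p was 0.0501, and without limma's intensity trend 0.053. The gene models of Igtp and Irgm2 overlap on the same strand in GENCODE M21, where they share 162 exonic bases, 8.01% of Igtp and 4.39% of Irgm2, and the counting rule for such stretches is not known.

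Of the effectors among the members, Iigp1 alone passed the threshold. Ifi47 and Tgtp2 differed by 1.27 and 1.26, close to the regulator Irgm2 at 1.34 ± 0.25, and no test compared regulators with effectors. Iigp1 (ENSMUSG00000054072.12, chromosome 18, 60376027 to 60392634, plus strand), the IRG protein whose GTP-driven assembly on vacuole membranes is best known, was at 9.40, 9.02 and 9.85 in OVA and 11.63, 11.60 and 10.71 in EAE. Each EAE sample was above each OVA sample by at least 0.86. The difference was 1.89 ± 0.29 (limma adjusted p = 0.0227).

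Ifi47 (ENSMUSG00000078920.3, chromosome 11, 49076587 to 49096974, plus strand) was at 8.30, 8.53 and 9.19 in OVA and 10.16, 10.30 and 9.37 in EAE. The groups did not overlap, but the nearest samples were only 0.18 apart. It differed by 1.27 ± 0.29 and missed the threshold (limma adjusted p = 0.0791). Ifi47 shares 4.49% of its exonic bases with Olfr56 on the same strand and 4.29% with the antisense model Gm12188.

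Tgtp1 and Tgtp2 are near-copies, and their values are uncertain. Of the 50-base stretches in Tgtp1 transcripts 79.4% also occur in Tgtp2, and of those in Tgtp2 85.8% occur in Tgtp1. A read from either gene can therefore often not be placed, and the authors' handling of such reads is not known. Tgtp2 (ENSMUSG00000078921.3, chromosome 11, 49057194 to 49064206, minus strand) was at 7.49, 7.54 and 8.23 in OVA and 9.31, 9.17 and 8.54 in EAE. The groups were 0.31 apart, and the difference of 1.26 ± 0.26 fell just short of the threshold (limma adjusted p = 0.0544). Tgtp1 (ENSMUSG00000078922.9, chromosome 11, 48985327 to 48994172, minus strand) was at 6.83, 6.85 and 7.34 in OVA and 8.03, 8.07 and 7.11 in EAE. Here EAE replicate 3 lay below OVA replicate 3, and the difference was 0.73 ± 0.27 (limma adjusted p = 0.238). The other members shared fewer such stretches with other genes, from 0.31% in Irgm1 to 11.8% in Igtp. The gene models of Tgtp1 and Gm12185 also overlap on the same strand, where they share 223 exonic bases, 6.96% of Tgtp1 and 3.99% of Gm12185.

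Levels of different genes were compared per length, as the mean rlog value less the log2 of the exonic length in kb. In OVA the order was Igtp at 8.89, Irgm2 at 8.27, Irgm1 at 7.49, Ifi47 at 7.37, Iigp1 at 6.88, Tgtp2 at 6.19 and Tgtp1 at 5.33. Irgm1 and Ifi47 were not separated, since their order changed between OVA samples, while every other pair of neighbours kept its order in each of the 3. In EAE the order was Igtp at 11.12, Irgm2 at 9.61, Irgm1 at 9.55, Iigp1 at 8.77, Ifi47 at 8.63, Tgtp2 at 7.45 and Tgtp1 at 6.06. There Irgm2 and Irgm1 changed places between samples, and Iigp1 now stood above Ifi47, by 0.07 to 0.24 in the 3 samples. On this scale the regulator Igtp led in both groups, at 1.51 above the next member in EAE against 0.62 in OVA. That lead depends on the length used, which covers the exons of all transcripts of a gene and is shortest for Igtp (2022 bases). Before the division Irgm2 and Irgm1 stood above Igtp in OVA (10.15 and 10.03 against 9.91). In EAE Igtp and Irgm1 were then close (12.14 and 12.09). The places of Tgtp1 and Tgtp2 are uncertain because of their shared sequence.

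The members varied together between samples of a group as well. All 7 had their highest OVA value in replicate 3, whose median excess over the mean of replicates 1 and 2 was 0.65, while 40.2% of all tested genes did so. In EAE replicate 3 all 7 were lower than in both other EAE pools, and the share of all tested genes that did so was not counted. Calls depended on single samples. Without OVA replicate 3, and likewise without EAE replicate 3, 6 of the 7 passed, all but Tgtp1 (limma adjusted p = 0.0976 and 0.0536). Without EAE replicate 1 only Irgm1 passed (0.047), and without EAE replicate 2, OVA replicate 1 or OVA replicate 2 none of the 7 did. In those 3 fits the adjusted p of Igtp was 0.0608, 0.0513 and 0.0663. These fits also differed in how many of all genes they called, with 24 higher and 1 lower without EAE replicate 2, and 850 and 346 without OVA replicate 3.

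**Figure D2:**
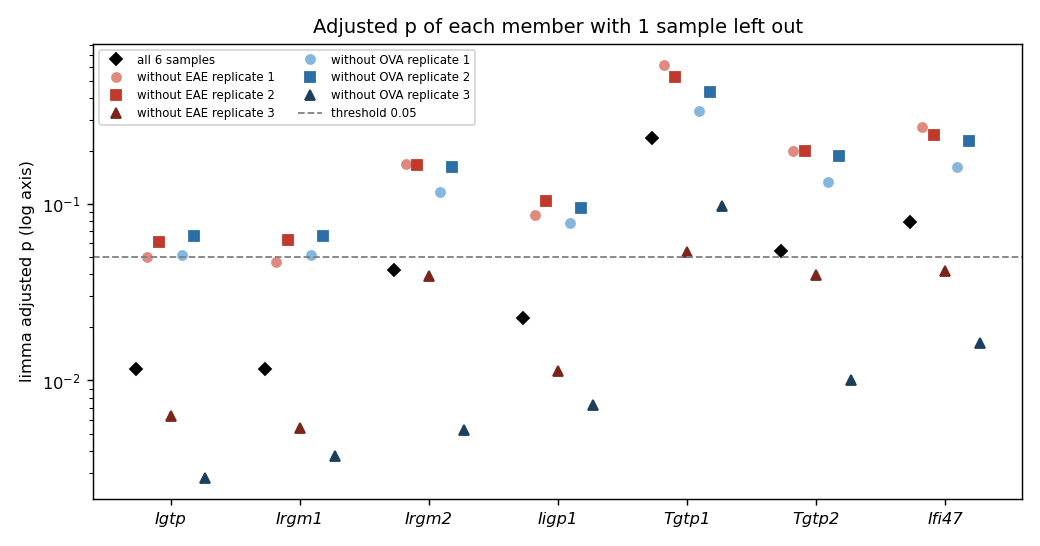
The limma adjusted p (log axis) of each IRG member is shown with all 6 samples (black diamonds) and with 1 sample left out (red for EAE, blue for OVA, triangles for replicate 3), with the threshold of 0.05 as a dashed line. Leaving out replicate 3 of either group lowered the adjusted p of every member, and leaving out any other sample raised it.

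Other genes of the family sit among the members. Of 10 that were listed 9 were tested, 4 rose and none fell, with a median difference of 0.71, and 6 had groups that did not overlap. Of all tested genes 1.72% were called higher, and 22.8% had groups apart in either direction. F830016B08Rik, a model beside Iigp1, was at 6.43, 6.23 and 6.55 in OVA and 8.18, 8.12 and 7.73 in EAE, a difference of 1.61 ± 0.15 (limma adjusted p = 0.0057). It stayed past the threshold in 5 of 6 fits with a sample left out, and its adjusted p was 0.051 without EAE replicate 2. Gm12250, known as the effector Irgb10, rose 3.94-fold (0.0169), from 7.03 ± 0.31 to 9.01 ± 0.52. Gm4951 rose 3.22-fold (0.0215) and Gm4841 1.63-fold (0.0246), the latter at low values of 4.43 ± 0.05 in OVA and 5.13 ± 0.22 in EAE. In fits with a sample left out these 3 passed without EAE replicate 3 or OVA replicate 3 and in none of the other 4. Gm12250 is annotated as a processed pseudogene in GENCODE M21.

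The remaining family genes did not pass. Gm12185 differed by 0.85 ± 0.21 and Gm5431 by 0.57 ± 0.12 (limma adjusted p = 0.0959 and 0.0525), and both had groups apart. 9930111J21Rik1 and 9930111J21Rik2 (Irgb5) differed by 0.18 ± 0.15 and 0.21 ± 0.19 (0.601 and 0.624), and their groups overlapped. These 2 share much of their sequence, with 80.4% of the 50-base stretches of the former found in the latter and 56.1% the other way. Gm5431 shares 37.3% of its stretches with other genes and Gm12185 19.5%, so their values are uncertain as well. Promoter windows were at hand for 6 of these 10 genes. Those of Gm12185 and Gm12250 hold both GAS and ISRE letters before the start site, those of 9930111J21Rik2 and Gm5431 carry neither, while 9930111J21Rik1 has an ISRE match behind its start site. Irgq, a distant relative not known to respond to interferon, was level, at 9.83 ± 0.06 in OVA and 9.82 ± 0.11 in EAE, with a difference of -0.01 ± 0.09 (0.971). Irgc1, the testis-expressed relative, was under the filter with values up to 0.68.

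By position the family forms a group of 8 genes over 235 kb of chromosome 11 from Irgm1 to Ifi47, another of 3 over 35.0 kb of chromosome 11 around Igtp and Irgm2, and 4 over 180.6 kb of chromosome 18 up to Iigp1. In the first 1 of 8 rose, Irgm1, and in the others 3 of 3 and 4 of 4. These counts turned on single samples, and no test of the difference between the groups was made. Without EAE replicate 3 or OVA replicate 3 the first group had 5 and 4 of 8 past the threshold, and the others again 3 of 3 and 4 of 4. Without any other single sample the first had at most 1 of 8, the second 0 of 3, and the third at most 1 of 4, F830016B08Rik. Neighbours are tested genes within 200 kb that are not among the listed family genes. Of all tested genes 2.38% were called in either direction, so few calls would be found among any such neighbours. Of those of the first group 0 of 9 were called, with differences from -0.07 to 0.49. The highest was in Olfr56, which shares exonic bases with Ifi47. Of those of the second 0 of 8 were called, with differences from -0.50 to 0.12. Around the third, 1 of 5 rose, BC023105, a processed pseudogene named after its value was seen (limma adjusted p = 0.00826). It shares 50-base stretches with Gm4841, amounting to 6.15% of the latter. Another neighbour there, the processed pseudogene Gm5970, shares 0.186% of the stretches of Iigp1. Whether BC023105 or Gm5970 belongs to the family was not examined.

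**Figure D3:**
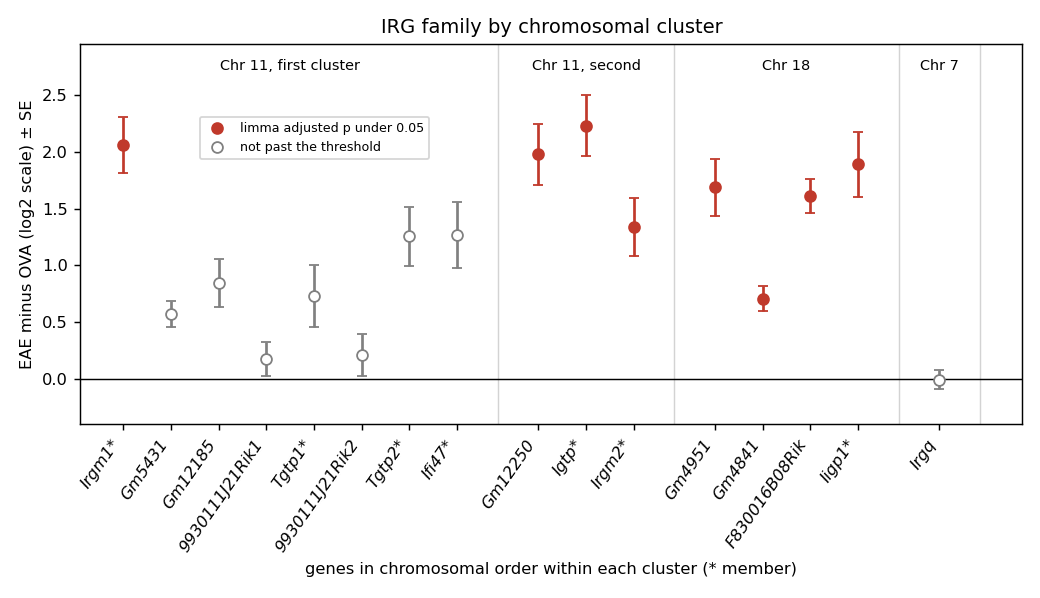
Differences between EAE and OVA (log2 scale, with SE) are shown for the 16 tested IRG family genes in chromosomal order, filled where the limma adjusted p was under 0.05, with members starred. All 7 genes of the second chromosome 11 group and the chromosome 18 group are filled, against Irgm1 alone among the 8 of the first group (5 of 8 without EAE replicate 3, and 1 of the 7 without OVA replicate 2), and Irgq on chromosome 7 lies at 0.

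Upstream of the family, the ligand rose, while the receptor chains and Janus kinases did not pass. Ifng, interferon gamma itself, was low, at 3.89, 4.00 and 3.90 in OVA and 4.32, 4.48 and 4.32 in EAE, and rose by 0.44 ± 0.07 (limma adjusted p = 0.0246). Its values are strongly drawn to their mean by the rlog. Irf1, a transcription factor that interferon gamma induces, was at 10.20, 10.14 and 10.73 in OVA and 11.90, 11.93 and 11.13 in EAE, and rose 2.46-fold (limma adjusted p = 0.0407). Of the receptor chains, Ifngr1 differed by -0.13 ± 0.09 and Ifngr2 by 0.49 ± 0.12 (0.509 and 0.0795). Jak2 differed by 0.32 ± 0.07 (0.0777), and Jak1 by 0.01 ± 0.08 (0.964), a value whose sign turned when samples were centred on their medians. With a sample left out Irf1 passed without replicate 3 of either group (limma adjusted p = 0.0149 for EAE and 0.0119 for OVA), Ifng and Ifngr2 passed without OVA replicate 3 (0.0239 and 0.0169), and no other such fit called any of these 6 genes.

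Against 1.72% of all tested genes called higher, 2 of 8 genes of type I interferon signalling and feedback rose, and none fell. They were Stat2, which joins Irf9 at ISRE elements, at 1.79-fold, and Irf8, a factor of myeloid cells, at 1.91-fold (limma adjusted p = 0.0385 and 0.0252). Irf9 differed by 0.49 ± 0.14 (0.127), the kinase Tyk2 by 0.23 ± 0.07 (0.126), and the feedback inhibitors Socs1 and Socs3 by 0.77 ± 0.20 and 0.92 ± 0.19 (0.108 and 0.0531). The receptor chains Ifnar1 and Ifnar2 differed by -0.12 ± 0.15 and 0.01 ± 0.11 (0.729 and 0.968), and the sign of both turned with a sample left out. Stat2 passed only without replicate 3 of either group (limma adjusted p = 0.0114 for EAE and 0.0314 for OVA), and Irf8 only without OVA replicate 3 (0.00615), among the 6 fits with a sample left out.

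The guanylate-binding proteins, large GTPases that join IRG proteins on vacuoles, had a median difference of 0.99 over 10 tested. The lowest were 0.15 in Gbp9 and 0.43 in Gbp4, whose groups overlapped. The median of all tested genes was -0.002, and 1.72% of them were called higher. Of the 10 guanylate-binding proteins 3 rose. These were Gbp2 (3.45-fold, limma adjusted p = 0.0297), Gbp8 (2.83-fold, 0.00978) and Gbp6 (2.76-fold, 0.0124). Gbp2 passed without EAE replicate 3 or OVA replicate 3 and in none of the other fits with a sample left out, where its limma adjusted p was 0.1 to 0.123. Leaving out replicate 2 of either group ended the limma calls of Gbp8 (adjusted p = 0.0549 for EAE and 0.0538 for OVA) and Gbp6 (0.066 and 0.0639), and leaving out EAE replicate 1 also ended that of Gbp6 (0.0584). Of the antiviral Mx proteins, Mx1 rose 2.27-fold and Mx2 1.57-fold (0.0233 and 0.0212), and the third large GTPase listed, Gvin1, did not pass. Mx1 likewise passed only without either replicate 3, while Mx2 did so without OVA replicate 1 as well. The ATG8 conjugation machinery, ubiquitin-like factors of autophagy that steer IRG effectors to their vacuoles, had differences from -0.12 to 0.18, with a median of 0.09. Of its 10 genes limma called 0, with 0 at an unadjusted p under 0.05. Over all tested genes limma called 2.38% in either direction, and 2963 of 18161 had an unadjusted p under 0.05. In so short a list 0 calls lie near the share of all genes. Gabarap and Atg7 had the smallest p, with 0.18 ± 0.08 and 0.13 ± 0.07 (limma adjusted p = 0.355 and 0.453).

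Genes most alike in course and in size of change were sought by the distance between each gene's values, less its mean, and the median profile of the 7 members over the 6 samples. The 8 nearest of 14713 tested protein-coding genes, leaving out the members and genes with placeholder names,, by root mean square distance on the log2 scale, were Fgl2 (0.078), Irf7 (0.090), Psmb8 (0.101), Irf1 (0.102), Oasl2 (0.117), H2-T23 (0.124), Il1b (0.139) and Gbp7 (0.141). Irf7 is a regulator of type I interferon, Psmb8 an immunoproteasome subunit, Oasl2 an antiviral protein, H2-T23 a non-classical class I molecule, Fgl2 a fibrinogen-like immune regulator and Il1b interleukin-1 beta. Within the family Irgm2 lay closest to the median profile at 0.046, followed by Tgtp2 and Ifi47 at 0.099 and 0.103, and Igtp and Tgtp1 farthest at 0.426 and 0.359. Fgl2, as an example, was at 8.60, 8.71 and 9.31 in OVA and 10.54, 10.51 and 9.94 in EAE. The distance is a description over 6 samples and carries no test. It is not scaled, so a gene with a larger or smaller difference lies farther off even where its course is alike. Igtp and Tgtp1, the farthest members, had the largest and the smallest difference of the 7. The members also set the profile to which they are compared.

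Markers of other cells that the bead fraction could hold differed between the samples as well. Over all tested genes limma called 1.72% higher and 2.38% in either direction, and 2963 of 18161 had an unadjusted p under 0.05. In lists this short 0 calls lie near the share of all genes and do not show that the part of a cell type was unchanged. Of 4 monocyte markers limma called 0, with 1 at an unadjusted p under 0.05, but Ly6c2, Ccr2, Plac8 and Chil3 were all highest within OVA in replicate 3. Their summed level, on the log2 scale, was 9.94, 10.05 and 12.71 in OVA replicates 1 to 3 and 11.33 to 11.98 in EAE, and the high sum in OVA replicate 3 was carried by Chil3, at 12.20 there against 10.27 to 10.86 in EAE. Ly6c2 stood at 9.39 in OVA replicate 3 against 8.74 to 9.37 in EAE, Ccr2 at 9.26 against 8.98 to 9.42 and Plac8 at 9.45 against 8.68 to 9.79. The summed level of the 7 IRG members was 12.61 in OVA replicate 3 and 13.43 to 14.24 in EAE. Of 9 microglia and macrophage markers 4 rose, Cd68, Fcer1g, Tyrobp and Aif1, with differences of 1.20, 1.015, 0.83 and 0.66. P2ry12 was the 1 called lower, with a difference of -1.015. Cx3cr1 and Tmem119 also lay lower in EAE, by differences of -0.53 and -0.36 with groups apart, but did not pass (limma adjusted p = 0.208 and 0.163). The summed level of the 9 ranged from 14.68 to 15.03 in OVA and from 14.84 to 14.97 in EAE. Csf1r, the most abundant of the 9, weighs most in this sum and was not called (13.75 in OVA and 13.78 in EAE). Of 7 tested T and NK cell markers 4 rose, and the summed level of all 8 ranged from 7.98 to 8.41 in OVA and from 8.70 to 8.91 in EAE. Of 5 neutrophil markers limma called 0, with 0 at an unadjusted p under 0.05 and a summed level of 11.47 to 15.00 in OVA and 11.17 to 12.04 in EAE. In the 9 oligodendrocyte markers limma called 0, with 1 at an unadjusted p under 0.05, and their summed level was 19.75 to 20.16 in OVA and 20.08 to 20.25 in EAE. Of 6 astrocyte markers Gfap rose 2.55-fold and 4 fell (Slc1a2, Slc1a3, Aqp4 and Gja1, by 0.55 to 0.94 on the log2 scale), and their summed level was 16.36 to 16.67 in OVA and 15.58 to 15.85 in EAE. Endothelial and pericyte markers, 5 each, gave limma 0 calls, with 2 and 1 at an unadjusted p under 0.05. All 10 differed by less than 0 and were highest in OVA replicate 3 among the OVA samples, and the summed levels were 15.36 to 16.03 in OVA and 14.92 to 15.44 in EAE for the endothelial list and 14.44 to 15.32 and 14.29 to 14.69 for the pericyte list. The 4 B cell markers also gave 0 calls, with 0 at an unadjusted p under 0.05. Which cells carried the IRG transcripts was not measured, and the part of these other cells in the differences was not tested. Without OVA replicate 3 the differences of the 7 members ranged from 0.90 for Tgtp1 to 2.45 for Igtp.

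**Figure D4:**
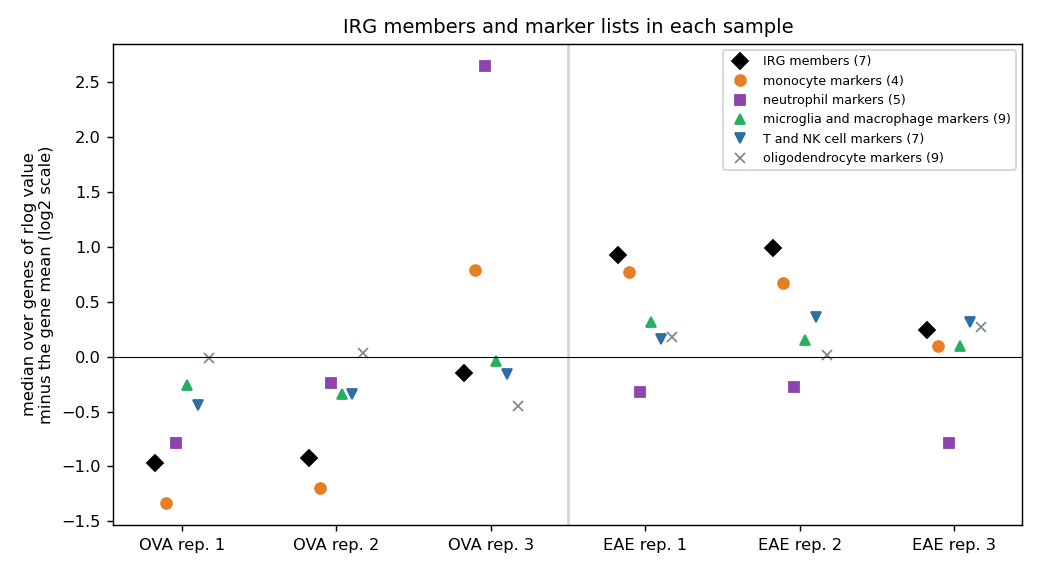
For each sample (horizontal axis) the median over genes of the rlog value less the gene's own mean (log2 scale) is shown for the 7 IRG members and 5 marker lists. The IRG members stand at -0.97, -0.92 and -0.15 in OVA replicates 1 to 3 and at 0.93, 0.99 and 0.25 in EAE. The microglia and macrophage markers stand at -0.26, -0.34 and -0.04 in OVA and at 0.32, 0.15 and 0.10 in EAE. Of these 9 genes 6 were higher in EAE, while P2ry12, Cx3cr1 and Tmem119 were lower. The monocyte markers stand at -1.33, -1.20 and 0.79 in OVA and at 0.78, 0.67 and 0.10 in EAE. The T and NK cell markers lie below 0 in OVA and above 0 in EAE. The neutrophil markers stand at 2.65 in OVA replicate 3 and below 0 in every other sample. The oligodendrocyte markers are lowest in OVA replicate 3, at -0.45.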

How the data were processed

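RNA of 6 samples was analysed. The authors deposited 1 log2 value per gene and sample, marked as rlog by the name of the table. Per the submitters' processing notes, the tools were STAR 2.6.1c, Subread 1.6.1, DESeq2 1.24.0, cutadapt 1.18 and bcl2fastq 2.17, with build GRCm38, and per the labels' protocols the TruSeq Stranded mRNA kit. The roles of the tools and the annotation release are not given in the sources used here. Every column belonged to 1 sample.

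Of 55298 identifiers 55117 (99.7%) matched a symbol, 54550 of them with the same version number, and positions and exonic lengths are those of GENCODE M21 (1-based). A symbol stands for its identifier with the highest mean. Genes averaging at least 3 over the 6 samples were kept. EAE was compared with OVA by two-sided moderated tests of limma 3.58.1 (R 4.3.3), whose prior variance followed a trend on intensity. The fit was tested on simulated data first. Folds are 2 to the power of the difference. Summed levels are the log2 of summed 2-to-the-rlog values. The shared-sequence share counts distinct stretches of 50 bases in GENCODE M21 transcripts.

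The members and gene lists were chosen with earlier results of these data known. Named are all listed IRG genes, the genes of both interferon signalling lists (1 is not reported here), up to 3 called genes of each other list or the 2 with the smallest p, and the 8 genes nearest in profile. Alternatives were other filters, moderation, weights and scaling, and leaving out each sample.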

Additional observations from a re-analysis of the deposited data

How the results depend on the processing

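Over 14 alternatives the 7 IRG members kept their direction. The 4 of 7 past the threshold became 3 without a filter on low values or without the intensity trend, 5 with weights by number of mice, median centring or quantile normalisation, and 7 with array quality weights, and ranged from 0 to 6 with a sample left out. All genes past it, 312 higher and 121 lower, became 2858 and 2233 with array quality weights, whose estimation stopped before converging and which gave OVA replicate 2 a weight of 8.85 and OVA replicate 3 one of 0.222. With a sample left out they ranged from 24 to 850 and from 1 to 346. Among 45 named genes 628 alternative values were computed, of which 477 kept direction and side of the threshold, 91 lost and 45 gained the call, and 15 changed sign. Those 15 belong to 4 genes with differences near 0. Irgq was 0.045 with array quality weights and 0.007 with weights by number of mice, and ranged from -0.06 to 0.051 with a sample left out. Jak1 was -0.012 with median centring (-0.02 to 0.06 with a sample left out) and Ifnar2 -0.009 (-0.074 to 0.134). Ifnar1 was 0.094 with array quality weights (-0.229 to 0.041 with a sample left out). The cause was not tested. Median centring moved all differences by -0.023. No paired analysis was possible because the replicate numbers follow the order of the samples and tie no EAE pool to an OVA sample. The depth is unknown, so the limit for weakly expressed genes such as Ifng cannot be stated.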
